A study of Homo sapiens with 10 samples.

Results

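The genes described here are 8 whose RNA stood among the most lowered in Kasumi-1 cells given the E protein HEB: OLIG1, ANXA8, EPHA1, KIR3DX1, CDC42EP3, ADAMTS7, RASSF4 and LOXL1-AS1. They are 8 of the 50868 genes in the deposited table and 8 of the 169 called lower in HEB than in vector. They were taken by name from a list chosen by the read counts of the HEB and vector libraries, so their difference between these libraries is a description and not a test. Kasumi-1, a cell line grown from human acute myeloid leukemia, carries a translocation between chromosomes 8 and 21. Retroviral infection gave the cells HA-tagged HEB, E2A or E2-2, or the empty MIGR1 vector, and GFP-positive cells were sorted for RNA-seq 4 days later. There is 1 RNA library for each of the groups vector, HEB, E2A and E2-2. All 4 groups therefore carry the translocation, the retroviral infection and the GFP sort. The 6 HA ChIP-seq and input libraries of the series were not analysed here.

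E proteins are basic helix-loop-helix transcription factors that bind, as dimers, the DNA sequence CANNTG, called an E-box. HEB is the product of TCF12, E2A of TCF3 and E2-2 of TCF4. In leukemias with this translocation the fusion protein AML1-ETO works in a complex that holds E proteins, and RUNX1, the part of the fusion that binds DNA, recognises the core TGTGGT.

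Library totals ran from 14816708 counted reads in E2-2 to 17673090 in E2A. Levels are given in CPM, reads per 1000000 of a library after scaling, and 3 reads amounted to between 0.170 and 0.198 CPM. Each transduced gene was highest in its own library, with TCF12 at 836 CPM in HEB and 145 to 168 in the others. TCF4 had 1 to 4 reads outside the E2-2 library, where it had 12484, so E2-2 was added to cells with almost none of its own transcript. ID3, which codes for an inhibitor of E proteins, had 41 reads in vector, 241 in HEB, 709 in E2A and 1360 in E2-2. Of the related inhibitor genes, ID2 rose in the same order of libraries and ID1 did not. ID2 had 256, 456, 2386 and 2506 reads in that order and ID1 had 459, 382, 497 and 251. In HEB against vector ID2 was 1.68-fold (1.44 to 1.96) higher and ID1 1.27-fold (1.11 to 1.46) lower. All 8 myeloid blast markers examined, MPO, KIT and CD34 among them, had reads in every library. CD33 was 3.18-fold (2.86 to 3.55) higher and CD34 1.95-fold (1.85 to 2.05) lower in HEB than in vector. Fibroblast markers summed to 0.340 to 0.659 CPM. Epithelial markers summed to 42.7 to 57.3 CPM, of which EPCAM alone gave 40.8 to 55.8.

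Each group has a single library, so no difference has a replicate check and no p-value is given. Values in parentheses after a fold are its 95% exact interval, which covers counting error only and treats each read as a separate molecule. The words called higher and called lower stand for a fold of 2 or more with an interval that leaves out 1 and a sum of 30 or more reads over the pair of libraries. In such bulk RNA, fewer cells that make a transcript and less transcript per cell cannot be told apart.

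Of the 8 genes, 6 code for proteins, LOXL1-AS1 is a long non-coding RNA and KIR3DX1 is a transcribed pseudogene in RefSeq. Promoter windows from RefSeq (GRCh38.p14, 250 bases before to 50 after a start site) matched 5 of the genes by symbol: EPHA1, CDC42EP3, ADAMTS7, RASSF4 and LOXL1-AS1. The first 4 are shown. Whether the letters go with the order of the libraries was not tested. EPHA1, CDC42EP3 and LOXL1-AS1 had the same order, as did KIR3DX1, which has no window here. In EPHA1 and LOXL1-AS1 the HEB level did not differ from E2A or from E2-2 beyond counting error. Capitals mark every CANNTG match, a sequence that reads the same on both strands. EPHA1 is at chr7:143408807-143409106 on the minus strand, CDC42EP3 at chr2:37672406-37672705 on the minus strand, RASSF4 at chr10:44959552-44959851 on the plus strand and ADAMTS7 at chr15:78811415-78811714 on the minus strand.
EPHA1: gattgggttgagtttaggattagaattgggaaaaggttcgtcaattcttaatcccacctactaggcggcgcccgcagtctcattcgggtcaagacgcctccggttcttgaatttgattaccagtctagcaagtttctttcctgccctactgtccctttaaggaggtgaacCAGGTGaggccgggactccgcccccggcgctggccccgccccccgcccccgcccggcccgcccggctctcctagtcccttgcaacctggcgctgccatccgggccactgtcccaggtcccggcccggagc
CDC42EP3: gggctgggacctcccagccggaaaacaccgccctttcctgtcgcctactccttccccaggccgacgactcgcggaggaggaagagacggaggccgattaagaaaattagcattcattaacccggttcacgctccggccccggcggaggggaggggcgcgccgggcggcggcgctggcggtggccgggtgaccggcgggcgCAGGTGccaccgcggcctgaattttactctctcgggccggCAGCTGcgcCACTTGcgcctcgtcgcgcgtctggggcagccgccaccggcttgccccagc
RASSF4: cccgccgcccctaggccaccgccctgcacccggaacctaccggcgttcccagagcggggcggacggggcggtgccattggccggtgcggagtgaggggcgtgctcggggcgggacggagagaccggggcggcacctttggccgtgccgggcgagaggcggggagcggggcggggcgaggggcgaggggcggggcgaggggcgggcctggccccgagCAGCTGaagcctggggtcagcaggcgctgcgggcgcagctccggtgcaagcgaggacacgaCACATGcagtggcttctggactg
ADAMTS7: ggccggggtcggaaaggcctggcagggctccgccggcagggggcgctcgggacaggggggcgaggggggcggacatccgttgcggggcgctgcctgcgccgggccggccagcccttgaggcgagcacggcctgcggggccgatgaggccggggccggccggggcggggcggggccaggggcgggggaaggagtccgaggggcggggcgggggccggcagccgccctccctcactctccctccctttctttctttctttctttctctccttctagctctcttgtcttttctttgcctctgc

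The letters of these windows differed between genes. EPHA1 held 1 match, CAGGTG, which began 80 bases before the start. CDC42EP3 has 3 start windows, of which windows 1 and 2 overlap, and window 2, shown here, held 3 matches, among them CAGGTG 50 bases and CAGCTG 10 bases before its start. RASSF4 held 2 matches, among them CAGCTG 34 bases before the start, and ADAMTS7 held no CANNTG. LOXL1-AS1 also has 3 windows, and one of them held CACCTG 161 bases before its start.

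Counted by gene, 4 of the 5 had an E-box in at least 1 window, beside 68.7% of all 35116 windows of this length. CAGCTG, the form found in CDC42EP3 and RASSF4, was present in 2 of the 5 genes and in 17.9% of all windows. The form in EPHA1, CDC42EP3 and LOXL1-AS1, CAGGTG on either strand, was present in 3 of the 5 genes and in 20.6% of all windows, and both forms are counted among the E-boxes too. The RUNX1 core named above was searched on both strands and stood in 0 of the 5 genes' windows and in 13.1% of all windows. These genes have up to 3 windows each, so their counts are not on the same footing as the share of single windows. A match describes letters and is no measurement of binding.

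In HEB against vector all 8 genes were called lower, which is what they were chosen for, beside a background of 1.23% of 13695 genes called lower. Their log2 folds ran from -2.34 to -1.16 with a median of -1.78, against a median of 0.01 over all measured genes. Ranked by the end of the interval nearest to a fold of 1, they took places between 1 and 11. In this ranking large folds on few reads and smaller folds on many reads both stand high. It was made here and is not the list that the genes were taken from. By fold alone OLIG1 and KIR3DX1 were ranks 1 and 2 of the 169 genes called lower, while CDC42EP3 was rank 72 and ADAMTS7 rank 90. The lowest placed of the 8, RASSF4, had a bound of 2.02. The next genes, passing over rank 12, which has only a clone identifier, were LINC01094 (2.00), RAB37 (1.96) and DHRS9 (1.95). RP11-54O7.16, ADAM28 and LINC00683 lay between the 8 genes in this ranking and are not among them.

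**Figure D1:**
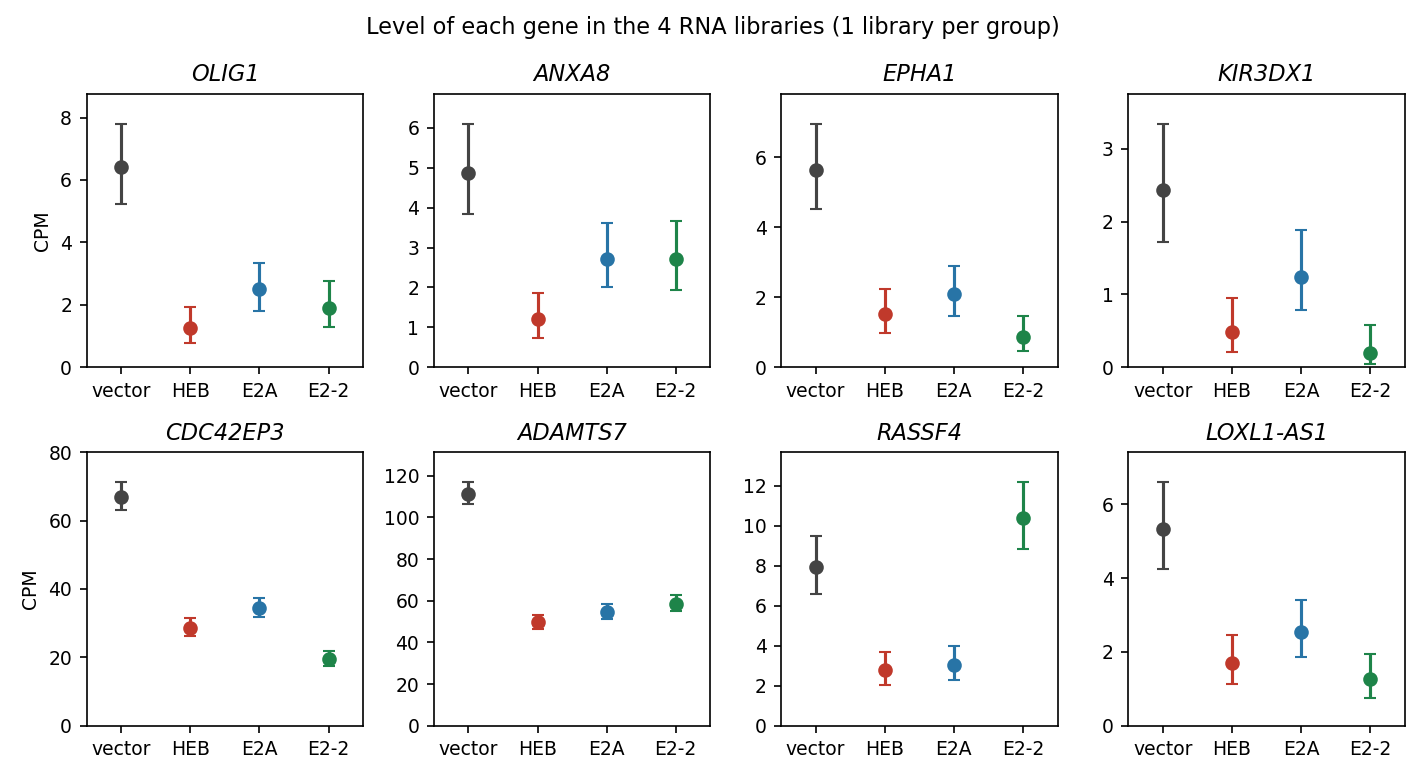
Level of each of the 8 genes in CPM (vertical axes, linear and different for each gene) in the vector, HEB, E2A and E2-2 libraries, 1 point per library with its 95% exact counting interval. Vector is the highest library for every gene but RASSF4, which stands at 10.4 CPM in E2-2 and 7.95 in vector.

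OLIG1 is a basic helix-loop-helix transcription factor known from the oligodendrocyte lineage of the brain (ENSG00000184221, GRCh38 chromosome 21, 33070144 to 33072420). It had 100 reads in vector (6.41 CPM), 21 in HEB (1.27 CPM), 44 in E2A (2.49 CPM) and 29 in E2-2 (1.91 CPM). Against vector its level was lower by a factor of 5.05 (3.13 to 8.52) in HEB, 2.57 (1.79 to 3.76) in E2A and 3.35 (2.20 to 5.26) in E2-2. Vector thus stood apart from the other libraries, while the E2A and E2-2 levels, and the E2-2 and HEB levels, did not differ beyond counting error. E2A was 1.96-fold (1.14 to 3.47) higher than HEB, just under the 2-fold limit.

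No other gene of the OLIG subfamily reached 30 reads. OLIG2, which lies within 100 kb of OLIG1, had 2 to 4 reads in each library. The oligodendrocyte markers SOX10 and NKX2-2 were at 0 in all 4 libraries. The 11 genes of that marker list summed to 173 to 188 CPM, nearly all of it from CNP and MBP, neither of which was called against vector in any library.

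EPHA1 is a receptor tyrosine kinase of the Eph family, whose ligands are the membrane-bound ephrins (ENSG00000146904, chromosome 7, 143390289 to 143408892). It had 88 reads in vector (5.64 CPM), 25 in HEB (1.51 CPM), 37 in E2A (2.09 CPM) and 13 in E2-2 (0.857 CPM). Compared with vector the level was lower by a factor of 3.73 (2.37 to 6.08) in HEB, 2.69 (1.82 to 4.07) in E2A and 6.58 (3.66 to 12.8) in E2-2. The lowest level was in E2-2, which was 2.44-fold (1.27 to 5.01) lower than E2A but not apart from HEB, at 1.76-fold (0.868 to 3.75) lower. EPHA1 shares 823 bases of its span with ZYX, which had 3244 to 4898 reads and was 1.17-fold (1.12 to 1.22) lower in HEB.

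Most other genes of the Eph system had too few reads to compare. Of 13 other Eph receptor genes 4 were measured, of which 1 was called higher and 0 lower (median log2 fold 0.27), beside 0.01 over all measured genes and 2.55% of these called higher. The higher gene was EPHB6, an Eph receptor that lacks kinase activity, with 173 reads in vector, 383 in HEB, 489 in E2A and 476 in E2-2. EPHB6 was 2.09-fold (1.74 to 2.51) higher in HEB, the opposite direction to EPHA1. Of the 8 ephrin genes 3 were measured, with 0 called lower and 1 called higher, EFNB1, at 67 reads in vector, 174 in HEB, 166 in E2A and 388 in E2-2 and 2.45-fold (1.84 to 3.30) higher in HEB.

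RASSF4 codes for a Ras association domain protein, one of a family with several tumor suppressors (ENSG00000107551, chromosome 10, 44959407 to 44995891). It had 124 reads in vector (7.95 CPM), 46 in HEB (2.78 CPM), 54 in E2A (3.06 CPM) and 158 in E2-2 (10.4 CPM). HEB was 2.86-fold (2.02 to 4.10) and E2A 2.60-fold (1.88 to 3.65) lower than vector, whereas E2-2 was 1.31-fold (1.03 to 1.67) higher. E2-2 was thus the highest library, vector came next, and E2A and HEB were the lowest. E2A and HEB did not differ beyond counting error, at 1.10-fold (0.728 to 1.67).

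Set directly against each other, E2-2 was 3.41-fold (2.49 to 4.73) above E2A and 3.75-fold (2.68 to 5.33) above HEB. C10orf10 lies within the RASSF4 span and had 5 reads in vector, 5 in HEB, 22 in E2A and 31 in E2-2. Of 15 other RASSF genes and Hippo pathway kinases and partners, 12 were measured and none was called in HEB (median log2 fold 0.17). Those with most reads were MOB1A, 1.13-fold (1.09 to 1.18) higher, and STK4, 1.16-fold (1.09 to 1.24) higher. In E2-2 against vector 12 were measured, of which 4 were called higher and 0 lower, where 8.45% of all 13884 measured genes were called higher and 3.55% lower. The 4 were RASSF2 (3.49-fold, 3.19 to 3.83), RASSF7 (2.99-fold, 2.20 to 4.13), RASSF5 (2.98-fold, 2.34 to 3.83) and LATS2 (2.19-fold, 1.68 to 2.86). Some of them were higher in HEB too, by less than 2-fold and so not called. RASSF2 was 1.83-fold (1.66 to 2.02), RASSF7 1.70-fold (1.21 to 2.40) and LATS2 1.36-fold (1.02 to 1.81) higher there. RASSF5 was 1.18-fold (0.863 to 1.61) lower in HEB. In E2A the 4 were 1.12-fold to 1.88-fold higher and not called.

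ANXA8 codes for an annexin, a calcium-dependent protein that binds membrane phospholipids (ENSG00000265190, chromosome 10, 47460162 to 47484158). It had 76 reads in vector (4.87 CPM), 20 in HEB (1.21 CPM), 48 in E2A (2.72 CPM) and 41 in E2-2 (2.70 CPM). HEB was lowest and vector highest, with E2A and E2-2 between them and not apart from each other, at a fold of 0.995 (0.640 to 1.54). Relative to vector ANXA8 was lower by a factor of 4.03 (2.44 to 6.97) in HEB, 1.79 (1.23 to 2.63) in E2A and 1.80 (1.22 to 2.70) in E2-2. It was called higher in both other E protein libraries than in HEB, by a factor of 2.25 (1.31 to 4.00) in E2A and 2.24 (1.28 to 4.03) in E2-2.

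ANXA8L1 is a near-identical copy of ANXA8 on the same chromosome, and reads of the 2 genes can be shared or lost between them. It had 85 reads in vector, 31 in HEB, 61 in E2A and 73 in E2-2. The 2 genes together had 161, 51, 109 and 114 reads in that order, and their sum was 3.35-fold (2.43 to 4.68) lower in HEB. For the sum, E2-2 was 1.37-fold (1.07 to 1.76) lower than vector and 2.44-fold (1.74 to 3.46) higher than HEB. Of the 12 other annexin genes 10 were measured, and ANXA8L1 was the only one called in HEB (2.91-fold, 1.91 to 4.54, lower). The annexin median log2 fold was -0.18. ANXA1 was called lower in E2A (2.11-fold, 1.67 to 2.68). In E2-2 ANXA5 was called higher (2.39-fold, 2.20 to 2.60) and ANXA6 lower (2.11-fold, 2.03 to 2.20).

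CDC42EP3 codes for an effector of the small GTPase CDC42, which shapes the actin and septin cytoskeleton (ENSG00000163171, chromosome 2, 37641882 to 37738468). It had 1045 reads in vector (67.0 CPM), 475 in HEB (28.7 CPM), 609 in E2A (34.5 CPM) and 297 in E2-2 (19.6 CPM). With these read numbers every library was apart from its neighbour in the order vector, E2A, HEB, E2-2. The fold against vector was 2.33 (2.09 to 2.61) lower in HEB, 1.94 (1.76 to 2.15) lower in E2A and 3.42 (3.00 to 3.90) lower in E2-2. E2-2 was 1.76-fold (1.53 to 2.03) lower than E2A and 1.47-fold (1.27 to 1.70) lower than HEB.

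Of 16 other genes of the CDC42 list, 13 were measured and none was called in HEB (median log2 fold 0.07). The best covered were PAK2, a kinase activated by CDC42, 1.10-fold (1.07 to 1.14) higher, and CDC42 itself, 1.01-fold (0.979 to 1.05) lower. In E2-2 the related effector gene CDC42EP4 was called higher, with 759 reads against 268 in vector, 2.91-fold (2.53 to 3.36).

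ADAMTS7 codes for a secreted metalloprotease that cuts cartilage oligomeric matrix protein (ENSG00000136378, chromosome 15, 78759203 to 78811431). It had 1738 reads in vector (111 CPM), 824 in HEB (49.8 CPM), 968 in E2A (54.8 CPM) and 889 in E2-2 (58.6 CPM). The 3 E protein libraries lay close together and well below vector, with folds of 2.24 (2.06 to 2.43) lower in HEB, 2.03 (1.88 to 2.20) lower in E2A and 1.90 (1.75 to 2.06) lower in E2-2. HEB was lowest, 1.10-fold (1.00 to 1.21) below E2A and 1.18-fold (1.07 to 1.30) below E2-2. E2-2 and E2A did not differ beyond counting error, at 1.07-fold (0.976 to 1.17).

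ADAMTS7 shares 945 bases of its span with MORF4L1, which was at 4509 to 5343 reads and at a fold of 0.996 (0.958 to 1.04) in HEB. Of 23 other ADAMTS and ADAMTS-like genes 10 were measured and none was called in HEB (median log2 fold -0.08). ADAMTSL4 was 1.05-fold (0.961 to 1.14) and ADAMTS3 1.06-fold (0.956 to 1.18) lower. Of the list, 11 were measured in E2A, with 2 called higher and 0 lower, beside 4.89% and 1.58% of all measured genes. The higher ones were ADAMTS17 (3.13-fold, 2.16 to 4.63) and ADAMTS2, with 31 reads against 1 in vector. ADAMTS2 passed the limit of 30 reads only with its E2A reads. In E2-2, of 10 measured, 2 were called lower and 1 higher, beside 3.55% and 8.45% of all measured genes. ADAMTS19 (5.38-fold, 3.08 to 10.0) and ADAMTS15 (2.98-fold, 2.30 to 3.89) were lower and ADAMTS17 (2.25-fold, 1.51 to 3.42) higher.

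KIR3DX1 lies among the receptor genes of the leukocyte receptor complex and is related to the killer cell immunoglobulin-like receptors (ENSG00000104970, chromosome 19, 54532692 to 54545771). It had 38 reads in vector (2.44 CPM), 8 in HEB (0.483 CPM), 22 in E2A (1.25 CPM) and 3 in E2-2 (0.198 CPM). These are the fewest reads of the 8 genes, and the intervals are the widest. Set against vector, it was lower by a factor of 5.04 (2.32 to 12.5) in HEB, 1.96 (1.13 to 3.47) in E2A and 12.3 (3.91 to 62.4) in E2-2. E2A was 2.58-fold (1.10 to 6.69) above HEB, and HEB and E2-2 did not differ beyond counting error.

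Of 25 other genes of the leukocyte receptor complex list, 5 were measured in HEB against vector, with 0 called higher and 1 lower (median log2 fold -0.39). That gene was VSTM1, an inhibitory receptor gene of myeloid cells, with 235 reads in vector, 105 in HEB, 129 in E2A and 36 in E2-2. VSTM1 was 2.37-fold (1.88 to 3.02) lower in HEB, and like KIR3DX1 it had its lowest count in E2-2. LILRA2, within 100 kb of KIR3DX1, was 1.78-fold (1.61 to 1.96) lower in HEB and not called. In E2-2 against vector 9 of the list were measured, with 4 called higher, beside 8.45% of all measured genes, and VSTM1 called lower, beside 3.55%. The higher ones, all genes of immune receptors, were LILRB2 (92 reads against 1 in vector), LILRB1 (43 against 3), LILRB5 (29 against 1) and LAIR2 (31 against 13). All 4 passed the limit of 30 reads only with their E2-2 reads, so their share of the 9 is shaped by that limit. KIR3DX1 and VSTM1 were lower in E2-2 than in vector.

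Of the 6 T and NK cell markers, 5 had reads in each library and GNLY was at 0 in all 4. The list summed to 3.53 CPM in vector and 2.04 to 2.51 CPM in the other libraries. Only CD3D had enough reads to be measured, with 34 in vector, 15 in HEB, 10 in E2A and 2 in E2-2, and it was called lower in HEB (2.40-fold, 1.28 to 4.75). The other markers did not share one direction. NKG7, a gene of cytotoxic granules, had 4 reads in vector, 10 in HEB, 14 in E2A and 22 in E2-2, KLRD1 had 6 to 8 in each library, and CD3E had 9, 7, 5 and 2 in the same order as NKG7. The part of such cells in the KIR3DX1 result was not tested.

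LOXL1-AS1 is a long non-coding RNA gene that lies head to head with the lysyl oxidase gene LOXL1 (ENSG00000261801, chromosome 15, 73908071 to 73928248). It had 83 reads in vector (5.32 CPM), 28 in HEB (1.69 CPM), 45 in E2A (2.55 CPM) and 19 in E2-2 (1.25 CPM). The vector level exceeded that of HEB by a factor of 3.14 (2.03 to 5.01), that of E2A by 2.09 (1.44 to 3.07) and that of E2-2 by 4.25 (2.56 to 7.41). E2-2 was 2.03-fold (1.17 to 3.68) lower than E2A, and HEB did not differ from either beyond counting error.

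LOXL1 itself shares 2260 bases of span with LOXL1-AS1 and had 4 reads in vector, 2 in HEB, 3 in E2A and 2 in E2-2, too few to compare. Whether counting used the strand is not given in the sources used here, so reads from the shared stretch cannot be assigned to one gene. Of 5 lysyl oxidase genes 3 were measured and none was called in HEB. LOXL3 was 1.22-fold (1.09 to 1.37) higher and LOXL2 1.32-fold (1.09 to 1.61) lower.

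**Figure D2:**
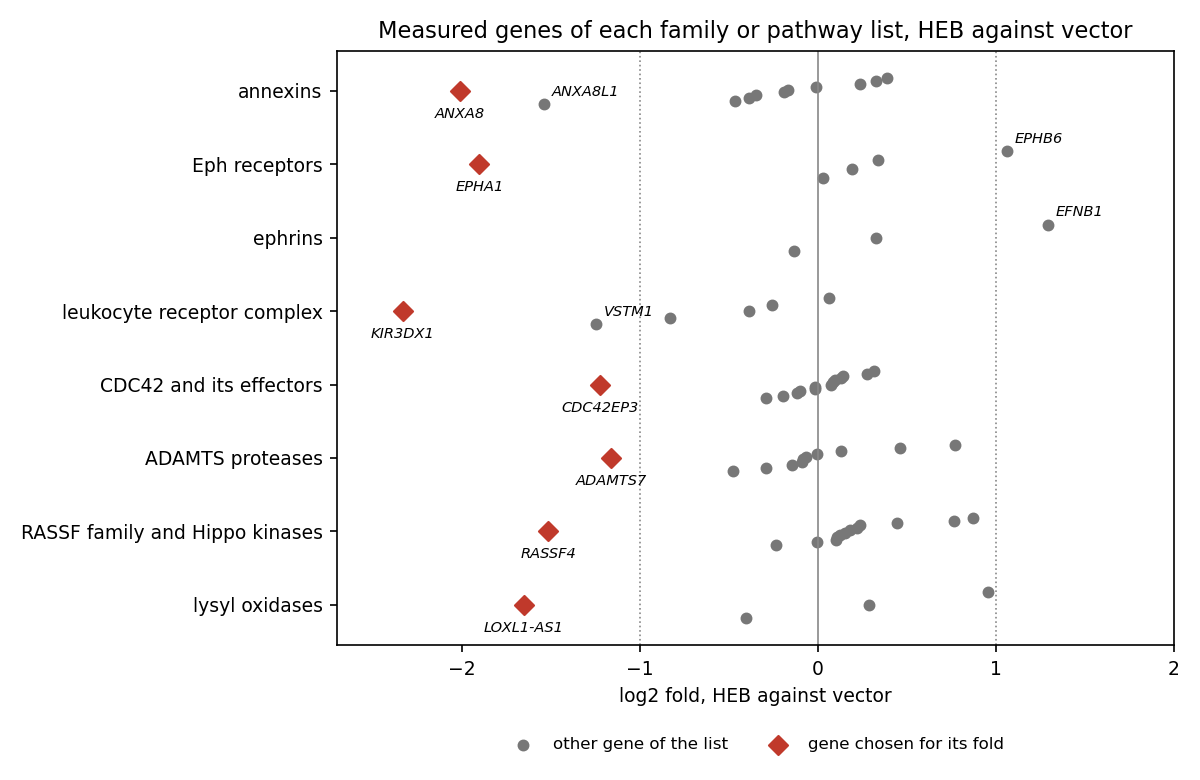
Log2 fold in HEB against vector (horizontal axis) for the measured genes of 8 family or pathway lists, with grey points for the other genes of each list, red diamonds for the genes chosen for this fold and dotted lines at 2-fold. Of the grey points, ANXA8L1 and VSTM1 are called lower and EPHB6 and EFNB1 higher, and the remaining ones lie inside the 2-fold lines.

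Across the 8 genes the other factors gave their own values against the same vector library. In E2A against vector 5 of the 8 were called lower, beside a background of 1.58% of 13901 genes, and 0 higher (4.89%), and the median log2 fold was -1.04. The 3 not called were ANXA8, KIR3DX1 and CDC42EP3, with folds of 1.79 to 1.96 lower. In E2-2 against vector 5 of the 8 were called lower, beside 3.55% of 13884 genes, and 0 higher (8.45%), with a median log2 fold of -1.76. The 3 not called were ANXA8, ADAMTS7 and RASSF4, the last being the 1 gene above vector. These counts share the vector reads that helped to choose the genes and are no independent support for the HEB values.

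**Figure D3:**
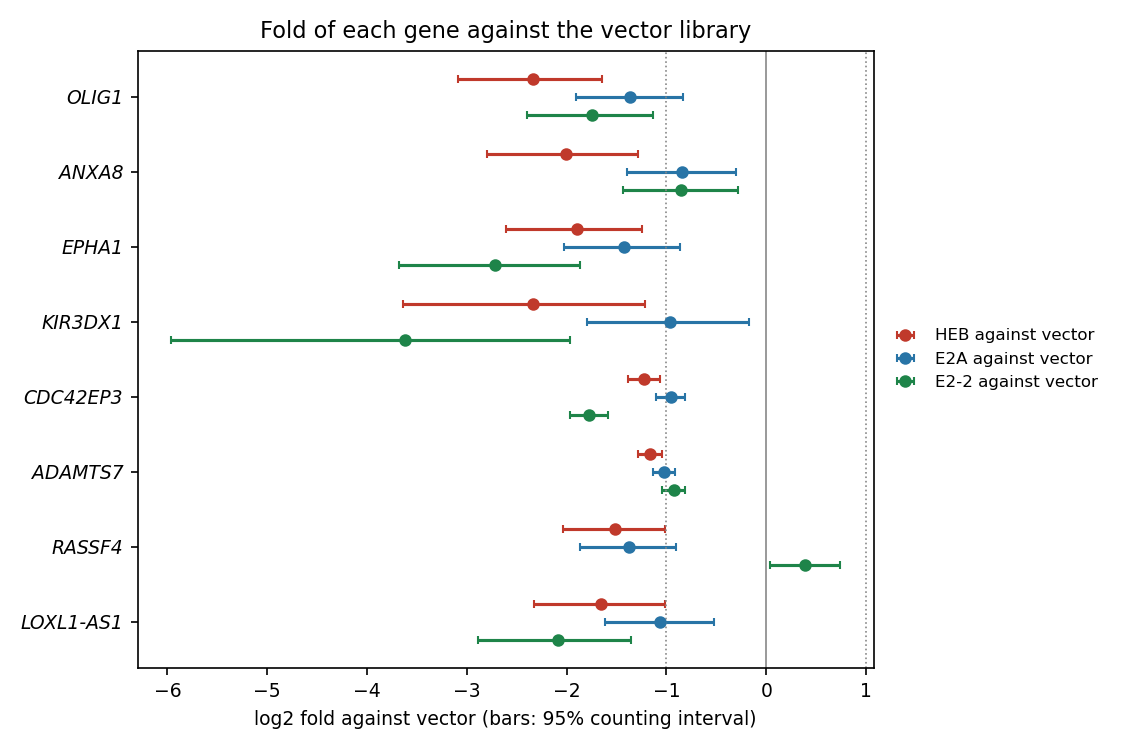
Log2 fold of each gene (rows) against the vector library, with 1 point each for HEB, E2A and E2-2, bars for 95% exact counting intervals and dotted lines at 2-fold. Folds for E2A lie between -1.43 and -0.84, whereas those for E2-2 spread from -3.62 for KIR3DX1 to 0.39 for RASSF4.

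The comparison of E2-2 with E2A uses neither the HEB nor the vector library. Of the 8 genes 7 had enough reads, of which 2, EPHA1 and LOXL1-AS1, were called lower in E2-2 (background 1.61% of 14066 genes) and 1, RASSF4, higher (background 3.63%). The LOXL1-AS1 call was lost with library totals in place of TMM scaling and with FPKM (log2 fold -0.99 in both). KIR3DX1, with 25 reads in these 2 libraries, fell under the limit of 30 and was 6.29-fold (1.89 to 32.8) lower in E2-2. CDC42EP3 was lower by less than the 2-fold rule, and OLIG1, ANXA8 and ADAMTS7 did not differ beyond counting error. The median log2 fold over the 8, KIR3DX1 included, was -0.60, beside -0.01 over all genes that passed the read limit. Among the 7 that passed it the middle value was that of OLIG1, -0.38.

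HEB was set against the other factors next, in comparisons that reuse the HEB library by which the genes were chosen. In E2A against HEB, 2 of the 8 were called higher in E2A, ANXA8 and KIR3DX1 (background 2.38% of 13944 genes), and 0 lower (background 0.696%). All 8 folds lay above 1, from 1.10 to 2.58. In E2-2 against HEB, 2 of 7 measured genes were called higher in E2-2, ANXA8 and RASSF4 (background 6.09% of 13891 genes), and 0 lower (background 1.57%). HEB was the lowest of the 4 libraries for OLIG1, ANXA8, ADAMTS7 and RASSF4, and E2-2 was the lowest for EPHA1, KIR3DX1, CDC42EP3 and LOXL1-AS1. Only for ANXA8, ADAMTS7 and CDC42EP3 was the lowest library apart from the next beyond counting error.

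**Figure D4:**
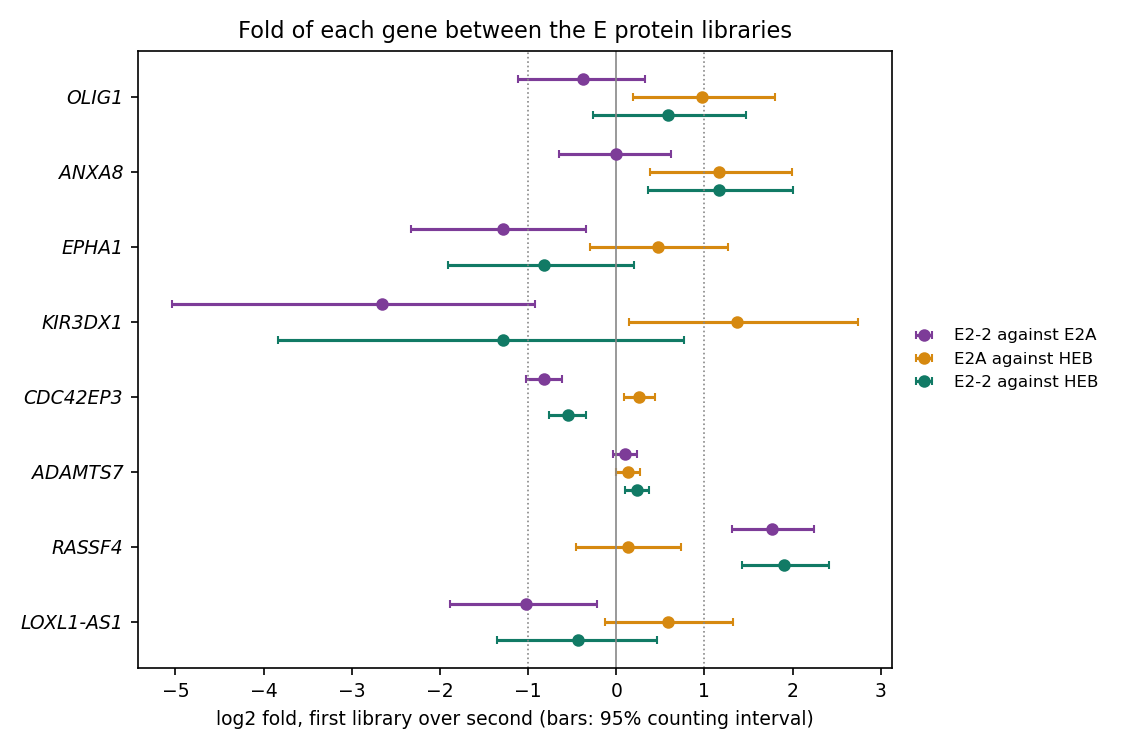
Log2 fold of each gene (rows) between pairs of E protein libraries, the first named over the second, with 95% exact counting intervals and dotted lines at 2-fold. RASSF4 stands at 1.77 in E2-2 against E2A and 1.91 in E2-2 against HEB, and ADAMTS7 lies between 0.10 and 0.24 in all 3 comparisons.

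Within 100 kb of them 16 genes were measured, beside 7 of the 8. In HEB 1 was called lower and 1 higher, where 1.23% and 2.55% of all 13695 measured genes were. LINC00211, near CDC42EP3, had 30 reads in vector, 11 in HEB, 7 in E2A and 3 in E2-2 and was 2.89-fold (1.41 to 6.40) lower in HEB. CHRNB4, a nicotinic receptor subunit gene near ADAMTS7, had 7 reads in vector and 24 in HEB and was 3.23-fold (1.35 to 8.88) higher. It passed the limit of 30 reads only with its HEB reads. Both calls rest on few reads, and with a limit of 100 reads 0 neighbours were called. ADAMTS7 and LOXL1-AS1 are both on chromosome 15, and ANXA8 and RASSF4 both on chromosome 10.

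By the gene ontology terms of the deposited table, 4 of the 7 genes with any term carried "developmental process" (OLIG1, EPHA1, CDC42EP3 and ADAMTS7), a term held by 29.9% of 11386 measured genes with terms. It is one of many broad terms that 4 or more of them carried. All 7 carried "binding", beside 85.4%, and 4 carried "intracellular", beside 83.4%. No theme was tested. The genes most like the median profile of the 8, by Euclidean distance over the 3 log2 folds against vector among 13403 genes, were GLYATL2 (0.397), NFASC (0.426), CSPG4P11 (0.445), LINC01094 (0.494) and STRA6 (0.495). For comparison, LOXL1-AS1 was the closest of the 8 to that median at 0.350, and RASSF4 the farthest at 2.19. GLYATL2 had 66 reads in vector, 23 in HEB, 29 in E2A and 17 in E2-2. All 3 folds share the vector library, and 4 libraries are too few for a correlation.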

How the data were processed

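The authors deposited a whole-number read count per Ensembl gene and library, and FPKM values beside it, per the file headers. HTSeq 0.9.1 and TopHat2 2.0.9 are among the tools in the submitters' processing notes, which state no roles, and the builds listed are hg19 and hg38. Annotation and strand setting: not given in the sources used here. All 8 genes overlapped their RefSeq GRCh38.p14 positions. The length behind the FPKM of OLIG1, 3398 bases, exceeds its span of 2277, so levels of different genes are not compared.

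Counts of all 50868 genes were scaled with edgeR 4.0.16 (TMM) in R 4.3.3. Folds carry Clopper-Pearson intervals of the conditional binomial distribution, and a count of 0 was set to 3 reads. Python 3.11.15, numpy 2.4.6, scipy 1.17.1, pandas 2.3.3 and matplotlib 3.10.9 were used. No test across samples is possible with 1 library per group.

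The genes and lists were chosen with earlier results of these data known. From each family list the called genes are named, or else the 2 with most reads. Called neighbours, the 3 genes ranked just below the described genes (clone identifiers passed over) and the 5 nearest profiles are named too. NKG7, KLRD1, CD3E, ADAM28, LINC00683, RP11-54O7.16, OLIG2, LILRA2, CD34 and the overlapping genes were named after their values were seen. Alternatives were other scalings (DESeq2 1.42.0), read and fold limits, FPKM and the window before the start.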

Additional observations from a re-analysis of the deposited data

Results flagged for a closer look

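RASSF4 was lower than vector in HEB and E2A and higher in E2-2, with each counting interval excluding 1. Its log2 fold against vector was 0.39 in E2-2, -1.52 in HEB and -1.38 in E2A. The difference between factors was not tested across samples, since each has 1 library, and all 3 folds share the vector library. In the direct comparison, without vector, E2-2 was 3.41-fold (2.49 to 4.73) above E2A.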

How the results depend on the processing

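Counting intervals leave out differences between cultures, and the genes other than CDC42EP3 and ADAMTS7 had 3 to 158 reads in a library and have the widest intervals. Other scalings or FPKM changed the value of 168 single folds, of which 163 kept their direction and their side of the call. Setting a count of 0 to 1 read could change none, since none of the 8 genes has a 0, and the FPKM values share the library totals. LOXL1-AS1 in E2-2 against E2A fell just short of 2-fold with library totals (log2 fold -0.99) and with FPKM (-0.99). ANXA8 in E2-2 against E2A, which was not called, moved to 0.03, 0.00 and 0.03 with library totals, DESeq2 size factors and FPKM.

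With a fold limit of 3, 5 of the 8 genes were called lower in HEB, 0 in E2A and 0 in E2-2 against E2A, 1 was higher in E2A or E2-2 than in HEB, 0 family genes were called and 1 neighbour. A fold limit of 1.5 called 8 genes lower in E2A, 9 family genes and 5 neighbours. With at least 100 reads, 0 of the 8 were lower in E2-2 against E2A, 1 was higher in E2A or E2-2 than in HEB and 0 neighbours were called. Library totals and FPKM each left 1 gene lower in E2-2 against E2A. The other counts were within 1.5 times those reported. No paired analysis was possible because each group has 1 library.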
